A study of Mus musculus with 7 samples.

Results

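The receptors Notch1, Notch2 and Notch3, the ligands Jag1, Jag2 and Dll1, and the HES and HEY family genes Hes1, Hes6, Hey1 and Heyl were followed in C2C12 muscle cells that had taken up exosomes from other C2C12 cells. They were found by gene name among the array's non-control probes, which gave 12 probes for the 10 genes, out of 39429 probes carrying 31829 gene names. Notch1 and Notch2 had 2 probes each, and every other gene had 1.

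C2C12 is an established mouse myoblast line that fuses into multinucleate myotubes when serum is reduced. The donor cells had received palmitate at 0.5 mmol/l bound to BSA (EXO-Post Palm, 3 arrays, labelled EXO-Palm) or BSA alone (EXO-Post BSA, 4 arrays, labelled Exo-BSA). Exosomes were collected 9 h after the fatty acid had been washed away and were left on the recipient cells for 24 h in medium without serum. No animal, transgene or deletion was involved, every array came from this 1 cell line, and the labels describe the arrays of a group as biological replicates. The labels name the recipient cells myoblasts, whereas the methods describe them as differentiated myotubes. Their cell line entry also runs upwards from C2C12 to C2C18 over the 7 samples, while the source entry is C2C12 on all of them. Cells given no exosomes were not analysed here, so each value compares 1 exosome preparation with the other.

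Notch receptors are single-pass membrane proteins that are activated by Jagged or Delta ligands on a neighbouring cell. Ligand pull exposes the receptor to ADAM proteases and then to gamma-secretase, and the freed intracellular domain binds RBPJ and a Mastermind coactivator in the nucleus to switch on genes such as Hes1, Hey1 and Heyl, which encode transcriptional repressors. In skeletal muscle the pathway is known for keeping satellite cells and myoblasts undifferentiated, and Dll1 is a ligand that muscle cells present to their neighbours. Hes6 is a family member that opposes Hes1 and is expressed as myoblasts differentiate.

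Both genes with a pair of probes are best read from what those probes cover. In Notch1 and Notch2 the probes below lie in the coding sequence for the intracellular part of the receptor, whereas the other probe of each gene lies further towards the 3′ end of the transcript, by 2323 bases in Notch1 and 2681 bases in Notch2. These 2 sequences, 60 bases each and taken from the array annotation, are shown because the Notch1 one carries the receptor result and the Notch2 one is its counterpart.
Notch1, A_55_P2171897, chr2:26319440-26319499 on mm9, minus strand: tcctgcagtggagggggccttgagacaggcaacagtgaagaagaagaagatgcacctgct
Notch2, A_55_P1982793, chr3:97951233-97951292 on mm9, plus strand: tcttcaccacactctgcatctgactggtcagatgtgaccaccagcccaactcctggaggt
No letters are set in capitals because no motif within them was examined.

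Each level below is the log2 of the processed fluorescence signal minus the log2 of the 75th percentile of all non-control spots on the same array, so that 0 is the level of a fairly bright probe of that array. Levels of different probes are not compared with each other, since probes differ in how strongly they bind. The 75th percentile itself ran from 549 to 1621 intensity units over the 7 arrays, between 48.5 and 70.3% of probes were well above background, and no spot was saturated. EXO-Post BSA replicates 1 and 2 shared a slide with EXO-Post Palm replicate 1, and EXO-Post BSA replicate 4 shared another with EXO-Post Palm replicate 3. Correlations of the values between arrays were 0.962 to 0.984 within EXO-Post BSA and 0.948 to 0.969 within EXO-Post Palm. Pairs of arrays from different groups had correlations of 0.947 to 0.984, a range that overlaps both. The 10 muscle differentiation markers examined, among them Myog and the myosins Myh3 and Myh8, were well above background on all 7 arrays, and none passed the adjusted threshold between the groups, although 8 of the 10 were lower with EXO-Post Palm.

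Of the 12 probes, 11 were bright enough to be tested, each being well above background on all 3 EXO-Post Palm arrays and on at least 3 of the 4 EXO-Post BSA arrays. None of the 11 passed an adjusted p of 0.05 in the limma fit over all 21589 tested probes, in which 115 probes, 0.533% of those tested, passed. Without adjustment, 4 of the 11 had a p under 0.05 and were lower with EXO-Post Palm (Notch1, Dll1, Hey1 and Heyl), and none was higher. The share of all tested probes that were lower at that unadjusted threshold was 5.19%. In the same 4 probes the highest EXO-Post Palm array lay below the lowest EXO-Post BSA array, which was the case for 5.87% of all tested probes. The median log2 change over the 11 probes was -0.45, with 8 of them lower, beside -0.02 over all tested probes, of which 52.7% were lower. The genes were chosen with earlier results of these data known, so these shares do not test whether they differ from other probes. Because RNA was taken from whole cultures, fewer cells expressing a gene and less of its RNA per cell cannot be told apart.

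**Figure D1:**
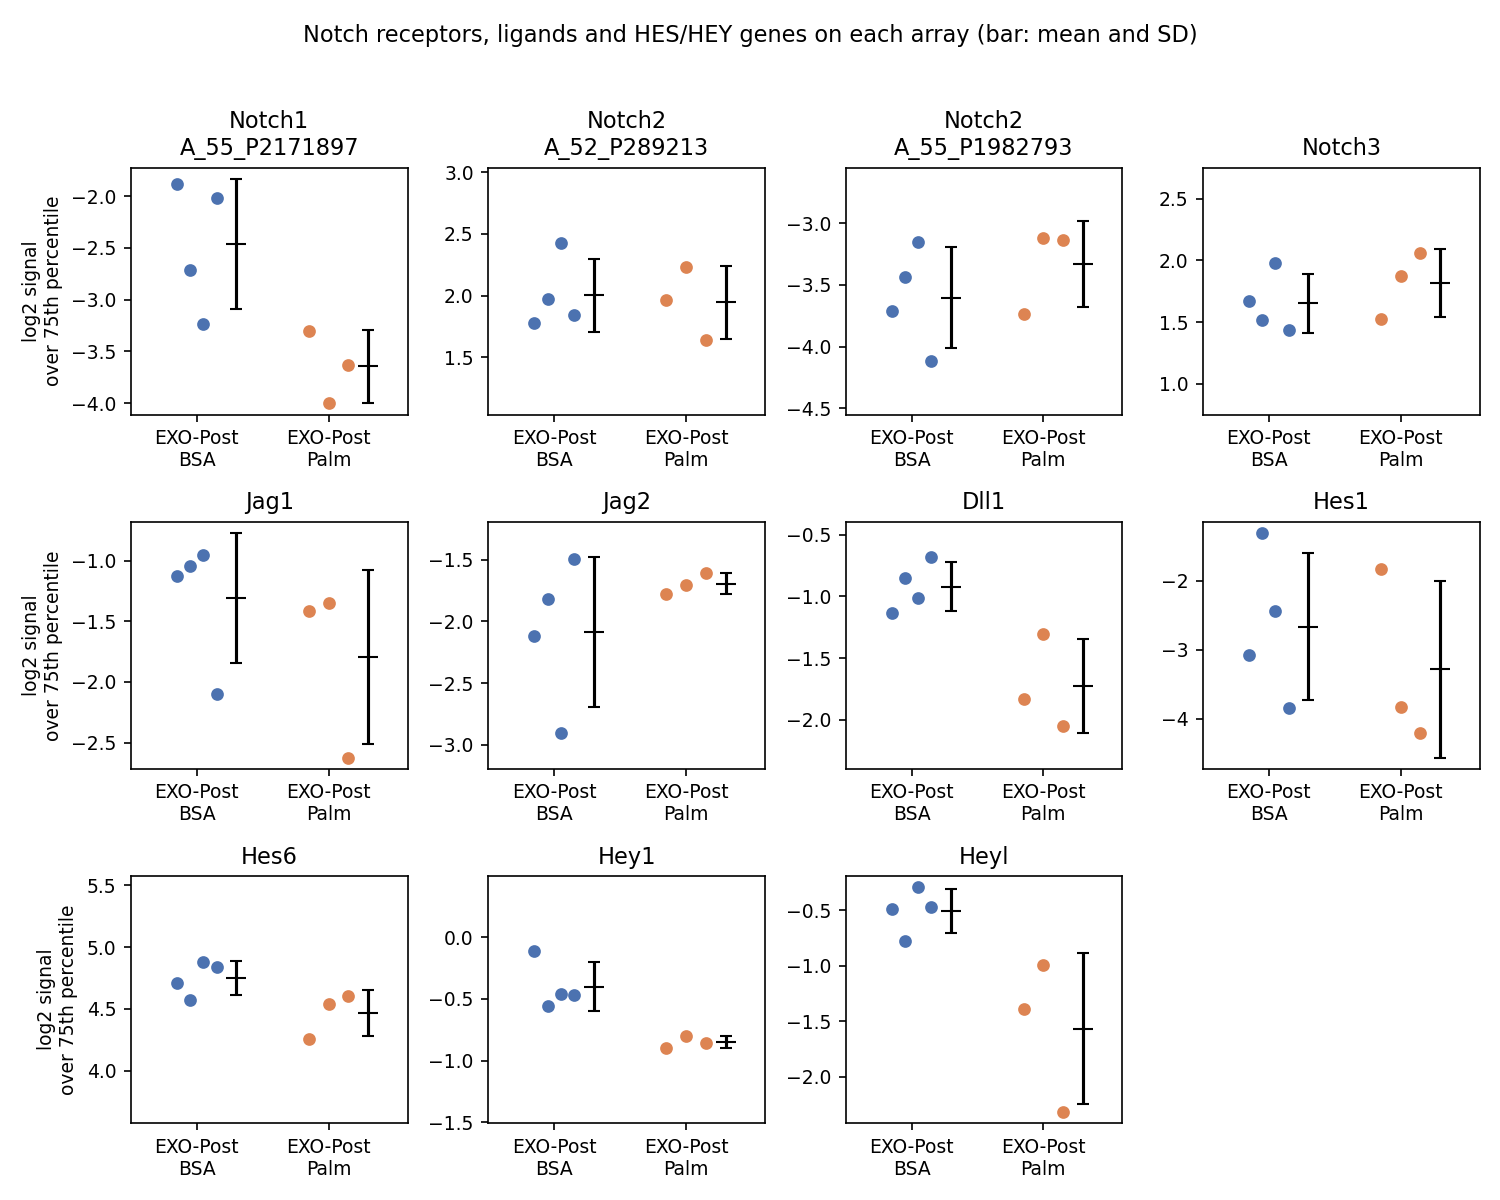
Level of each of the 11 tested probes on every array, as log2 signal over the array's 75th percentile (vertical axis, placed separately for each probe), with 4 EXO-Post BSA arrays in blue, 3 EXO-Post Palm arrays in orange, and black bars for the mean and SD. The points of the groups are fully apart in Notch1, Dll1, Hey1 and Heyl and overlap in the other panels.

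Among the receptors, Notch1 had the lower signal with EXO-Post Palm, whereas Notch2 and Notch3 did not differ beyond the spread of the arrays. The coding probe of Notch1 read -1.89, -2.71, -3.23 and -2.02 on the EXO-Post BSA arrays and -3.30, -4.00 and -3.63 on the EXO-Post Palm arrays, here and below in the order of the replicate numbers. All 3 EXO-Post Palm arrays were therefore below all 4 EXO-Post BSA arrays, although EXO-Post BSA replicate 3 came close to EXO-Post Palm replicate 1. The means were -2.46 ± 0.63 (SD, n = 4) and -3.65 ± 0.35 (SD, n = 3), a log2 change of -1.18 with an SE of 0.36, equal to a 2.27-fold lower signal. The limma adjusted p was 0.293 (unadjusted p = 0.00944), and an exact permutation test over the 35 ways of parting the arrays gave p = 0.0571, 2-sided. The raw signal behind these values was modest, from 40.5 to 313 intensity units.

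The other Notch1 probe, A_55_P2047168 at chr2:26314630-26314689 on mm9, was not well above background on any of the 7 arrays. Its raw signal lay between 4.19 and 10.1 intensity units, so it gives no second reading of the gene. It lies nearer the 3′ end, where the Notch2 probe was the brighter of its pair. Why only the coding probe of Notch1 gave a signal was not tested. The Notch1 difference thus rests on 1 probe, with 1 spot per array.

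Notch2, a receptor with largely overlapping signalling functions to Notch1, was read by 2 probes. The brighter, A_52_P289213, had levels of 1.78, 1.97, 2.43 and 1.84 on the EXO-Post BSA arrays and 1.96, 2.23 and 1.64 on the EXO-Post Palm arrays. The groups overlapped throughout, and the log2 change was -0.06 with a 95% confidence interval from -0.62 to 0.50 (limma adjusted p = 0.956). The coding probe, A_55_P1982793, read -3.71, -3.43, -3.15 and -4.12 with EXO-Post BSA and -3.74, -3.12 and -3.14 with EXO-Post Palm. Here too the groups overlapped, the lowest array, EXO-Post BSA replicate 4, being the 1 on which this probe was not well above background. Its log2 change was 0.27, with an interval from -0.38 to 0.92 (limma adjusted p = 0.790).

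Notch3, the receptor best known from vascular smooth muscle and also found in myoblasts, had levels of 1.67, 1.52, 1.98 and 1.44 with EXO-Post BSA and 1.52, 1.87 and 2.06 with EXO-Post Palm. EXO-Post Palm replicate 3 was the highest of the 7 arrays and the other two lay within the EXO-Post BSA range. The log2 change was 0.17, with a 95% confidence interval from -0.35 to 0.69 (limma adjusted p = 0.843). The difference between the change of Notch1 and that of the other receptors was not tested.

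Of the ligands, Dll1 had the difference that was largest beside its spread. Its probe at chr17:15504623-15504682 on mm9 read -1.14, -0.85, -1.02 and -0.68 on the EXO-Post BSA arrays, against -1.83, -1.31 and -2.05 on the EXO-Post Palm arrays. No EXO-Post Palm array reached the level of any EXO-Post BSA array, and EXO-Post Palm replicate 2 was the nearest. The group means were -0.92 ± 0.20 (SD, n = 4) and -1.73 ± 0.38 (SD, n = 3), a log2 change of -0.81 with an SE of 0.24 and a 1.75-fold lower signal. The limma adjusted p was 0.290 (unadjusted p = 0.00916), and the exact permutation test gave 2-sided p = 0.0286, the smallest value that 4 arrays against 3 allow.

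Dll1 was the only gene of the 10 whose probe is printed more than once, with 10 spots on each array, none of them marked as faulty. These repeats show the error between spots of the same array, and not that of labelling or hybridisation, which the spots share. The SD over the 10 spots was between 0.15 and 0.27 on each array. On EXO-Post Palm replicates 1 and 3 even the brightest spots, at -1.63 and -1.68, were below the mean of every EXO-Post BSA array. Single spots did overlap. Those of EXO-Post Palm replicate 2 ran from -1.76 to -1.02 and reached into the ranges of EXO-Post BSA replicates 1, 2 and 3, whose lowest spots were at -1.67, -1.18 and -1.40, and the brightest spot of EXO-Post Palm replicate 1 exceeded the lowest of EXO-Post BSA replicate 1. The repeats are spots of 1 labelled RNA and were averaged before the comparison, so they add nothing to n.

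**Figure D2:**
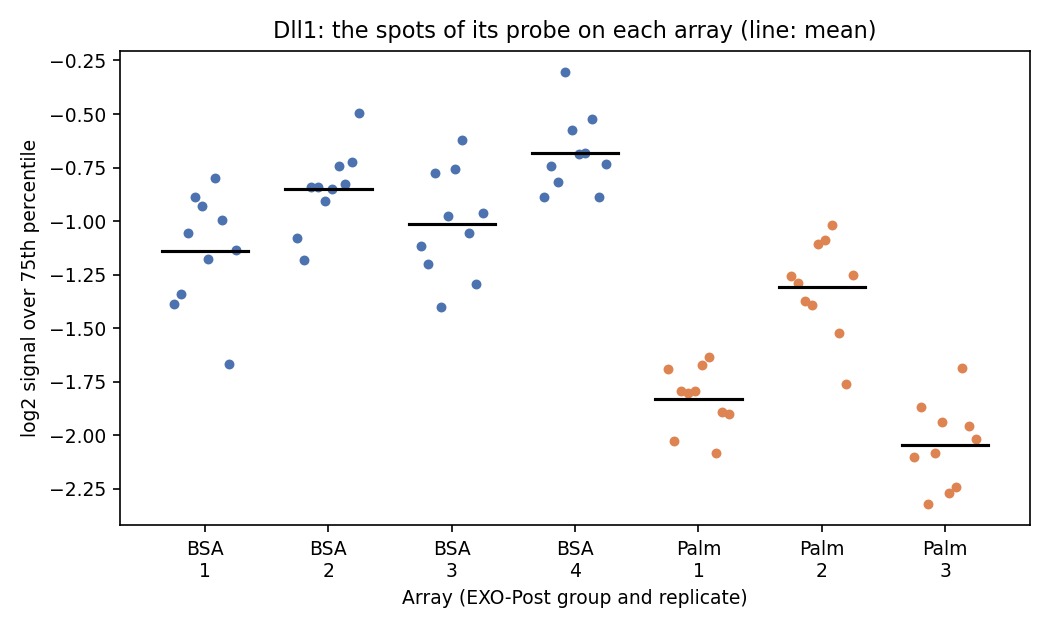
The 10 spots of the Dll1 probe on each array, as log2 signal over the array's 75th percentile (vertical axis), with the 4 EXO-Post BSA arrays in blue, the 3 EXO-Post Palm arrays in orange and a black line at each array's mean. Array means run from -1.14 to -0.68 with EXO-Post BSA and from -2.05 to -1.31 with EXO-Post Palm, while single spots of EXO-Post Palm replicates 1 and 2 overlap those of EXO-Post BSA.

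The Jagged ligands did not follow Dll1 beyond their spread. Jag1 read -1.13, -1.05, -0.95 and -2.10 with EXO-Post BSA and -1.41, -1.35 and -2.62 with EXO-Post Palm. The lowest array of each group, EXO-Post BSA replicate 4 and EXO-Post Palm replicate 3, came from the same slide. Over all 7 arrays the log2 change was -0.49, with a 95% confidence interval from -1.39 to 0.42 (limma adjusted p = 0.721). Leaving out EXO-Post Palm replicate 3 gave -0.07, and leaving out EXO-Post BSA replicate 4 gave -0.75.

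Jag2 read -2.12, -1.82, -2.91 and -1.50 with EXO-Post BSA and -1.78, -1.70 and -1.61 with EXO-Post Palm. The 3 EXO-Post Palm arrays were close together, with an SD of 0.09 (n = 3), and lay within the wide EXO-Post BSA range, whose SD was 0.60 (n = 4). The log2 change was 0.39, with an interval from -0.35 to 1.13 (limma adjusted p = 0.730). It was 0.12 without EXO-Post BSA replicate 3, the lowest array, and 0.59 without EXO-Post BSA replicate 4.

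Among the HES and HEY genes followed, the groups were apart in Heyl and Hey1, both lower with EXO-Post Palm without passing the adjusted threshold. Hey2, a further HEY gene on the array, was not well above background on any array and was not tested. Heyl, a repressor switched on by Notch in muscle and vascular cells, read -0.49, -0.78, -0.29 and -0.47 on the EXO-Post BSA arrays and -1.39, -1.00 and -2.32 on the EXO-Post Palm arrays. The groups did not overlap, the EXO-Post BSA arrays kept within a narrow range, and EXO-Post Palm replicate 3 was well below the other two. The means were -0.51 ± 0.20 (SD, n = 4) and -1.57 ± 0.68 (SD, n = 3), a log2 change of -1.06 with an SE of 0.32 and a 2.09-fold lower signal. The limma adjusted p was 0.290 (unadjusted p = 0.00918) and the exact permutation p was 0.0286, 2-sided. Leaving out EXO-Post Palm replicate 3 brought the log2 change to -0.69 (limma adjusted p = 0.659). The probe lies at chr4:122926975-122927034 on mm9.

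Hey1, a related repressor and a direct Notch target in many cell types, had a smaller difference and a tighter spread. It read -0.11, -0.56, -0.46 and -0.47 with EXO-Post BSA and -0.90, -0.80 and -0.86 with EXO-Post Palm. The EXO-Post Palm arrays had an SD of 0.05 (n = 3) and were all below the EXO-Post BSA arrays. The log2 change was -0.45 with an SE of 0.20, equal to a 1.37-fold lower signal, with a limma adjusted p of 0.495 (unadjusted p = 0.0486) and an exact permutation p of 0.0286, 2-sided. Its probe lies at chr3:8663432-8663491 on mm9. The residual SD of Hey1 over the arrays, 0.16, was below that of all but 4.47% of the tested probes.

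Hes1, the classical Notch target, could not be read well on these arrays. Its levels were -3.07, -1.31, -2.43 and -3.84 with EXO-Post BSA and -1.82, -3.83 and -4.20 with EXO-Post Palm, a range of raw signals from 29.9 to 459 intensity units. The spread within each group exceeded the difference between them, its residual SD of 1.16 being larger than that of 97.3% of the tested probes. The log2 change of -0.62 had a 95% confidence interval from -2.20 to 0.96 (limma adjusted p = 0.803). That interval held both a 2-fold lower and a nearly 2-fold higher level.

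Hes6, which rises as myoblasts differentiate, gave raw signals of 13355 to 30998 intensity units. It read 4.71, 4.57, 4.88 and 4.84 with EXO-Post BSA and 4.26, 4.54 and 4.60 with EXO-Post Palm. The 3 EXO-Post Palm arrays were at the lower end, but EXO-Post Palm replicate 3 exceeded EXO-Post BSA replicate 2, so the groups overlapped. The log2 change was -0.29, with an interval from -0.74 to 0.17 (limma adjusted p = 0.674, exact permutation p = 0.0857, 2-sided).

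**Figure D3:**
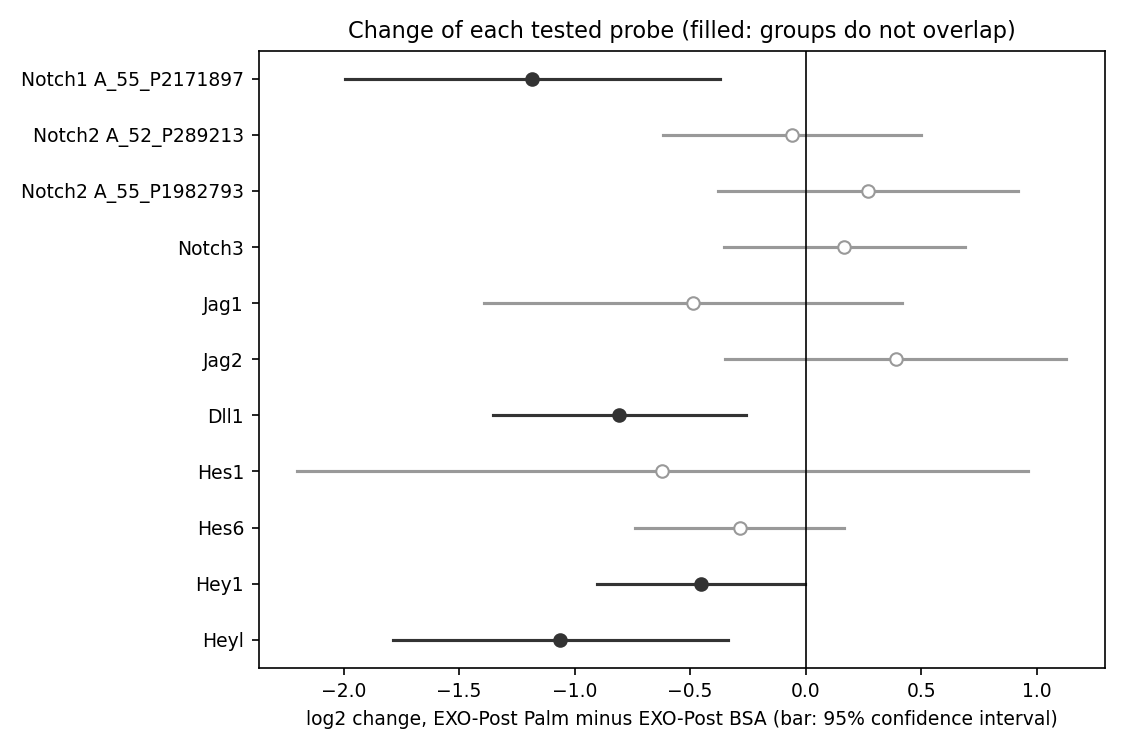
Log2 change of each tested probe, EXO-Post Palm minus EXO-Post BSA (horizontal axis), with its 95% confidence interval from limma before adjustment for the number of probes. Filled points mark the 4 probes whose groups do not overlap; their intervals lie below 0, that of Hey1 by less than 0.01, and the other 7 intervals contain 0.

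Slides were considered next, because 2 of the 4 slides held both groups. On the slide with 2 EXO-Post BSA arrays and 1 EXO-Post Palm array, the log2 difference was -1.00 for Notch1, -0.84 for Dll1, -0.76 for Heyl and -0.56 for Hey1. On the slide with 1 array of each group, it was -1.61 for Notch1, -1.36 for Dll1, -1.85 for Heyl and -0.39 for Hey1. These 4 genes could only be lower on both slides, since all their EXO-Post Palm arrays lay below all their EXO-Post BSA arrays. For them the slides are therefore no separate check. Jag1 (-0.32 and -0.52) and Hes6 (-0.39 and -0.24), whose groups overlapped, were also lower on both slides. Of the 11 probes, 8 were lower on the first slide and 9 on the second. The share of all tested probes lower on each slide was not examined. With slide as a fixed block, the log2 changes were -1.26 for Notch1, -1.06 for Dll1, -1.22 for Heyl and -0.49 for Hey1. EXO-Post BSA replicate 3 and EXO-Post Palm replicate 2 were each alone on a slide and added nothing to these changes. The block therefore only combines the differences of the 2 slides above. The same block took Jag2 to 0.06, and Notch2 (both probes), Notch3, Jag1 and Hes6 to values between -0.41 and 0.33. Hes1 was 0.37 higher on the first slide, had a difference of -0.36 on the second, and was at 0.057 with the block.

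The rest of the pathway was read from role lists, with the brightest probe standing for each gene. Of 65 further genes on the array, 54 were tested, and none passed the adjusted threshold in either direction. Their median log2 change was -0.03, with 26 higher and 28 lower, against -0.02 over all tested probes. At an unadjusted p under 0.05, 5 were lower, which is 9.26% of the 54 beside 5.19% of all tested probes, and none was higher. These lists too were chosen with earlier results of these data known, so the shares are a description only.

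Among the machinery that cuts the receptor, 5 of the 8 tested genes were lower, with a median log2 change of -0.41. The smallest p-values belonged to Aph1a and Aph1b, alternative subunits of gamma-secretase. Aph1a had a log2 change of -0.88 with an SE of 0.24 (limma adjusted p = 0.229) and Aph1b one of -0.56 with an SE of 0.20 (limma adjusted p = 0.401), both without overlap between the groups. A second tested probe of each gene gave -0.11 for Aph1a (limma adjusted p = 0.937) and -0.05 for Aph1b (limma adjusted p = 0.957), with overlapping groups. Their 95% confidence intervals were wide, from -0.88 to 0.66 and from -0.60 to 0.49. The difference between the probes of a gene was not tested.

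In the nuclear complex, which holds RBPJ, its coactivators and its corepressors, 11 of 21 tested genes were higher and 10 lower, with a median log2 change of 0.01. Maml2, a Mastermind coactivator, had a log2 change of -0.64 (limma adjusted p = 0.408) and Crebbp, a histone acetyltransferase, one of -0.59 (limma adjusted p = 0.490). Of the 6 other HES, HEY and related targets on the array, only Hes7 and Hes2 were bright enough to be tested. Hes7, a repressor of the somite clock, had a log2 change of -0.55 (limma adjusted p = 0.488) with no overlap between the groups, and Hes2 one of -0.06 (limma adjusted p = 0.987).

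Of 5 other ligands, Dll3 and Dlk2 were tested and had log2 changes of 0.33 (limma adjusted p = 0.794) and 0.00 (limma adjusted p = 0.997). Notch4, the remaining receptor, was too dim to be tested. The enzymes that add sugars to Notch included 3 lower and 2 higher genes of 5, with the smallest p-values for Lfng, a Fringe glycosyltransferase, at -0.55 (limma adjusted p = 0.599) and Pofut1, which adds fucose, at 0.26 (limma adjusted p = 0.772). Of 4 genes for ligand endocytosis, Neurl2 had a log2 change of 0.30 (limma adjusted p = 0.714) and the ubiquitin ligase Mib1 one of -0.27 (limma adjusted p = 0.741). Among 12 tested genes of receptor endocytosis and turnover, the median was -0.06, and the smallest p-values were those of Numbl, a relative of the Notch antagonist Numb, at 0.25 (limma adjusted p = 0.714) and Dtx4, a Deltex ubiquitin ligase, at 0.24 (limma adjusted p = 0.716).

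**Figure D4:**
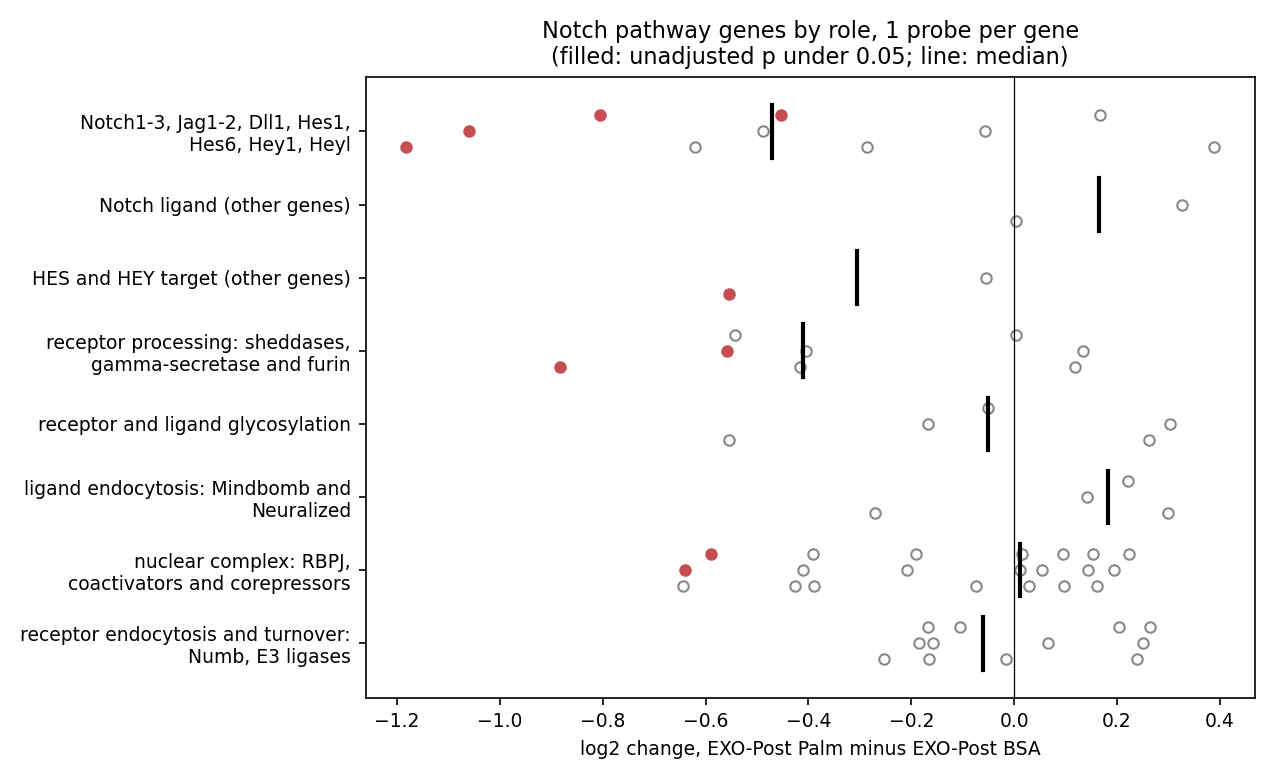
Log2 change, EXO-Post Palm minus EXO-Post BSA (horizontal axis), for 1 probe of each tested gene, by role in the pathway, with the 10 genes named above in the top row. Filled red points have an unadjusted limma p under 0.05 and black lines are medians; all 9 filled points lie below 0, and none passed after adjustment.

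Proliferation markers differed between the same arrays. Of 12 proliferation markers on the array, 11 were tested, all were higher with EXO-Post Palm, and 7 of them passed the adjusted threshold, with a median log2 change of 2.31. The mean level of the 12 ran from -1.39 to -1.10 over the EXO-Post BSA arrays and from 0.44 to 1.20 over the EXO-Post Palm arrays. It includes Aurkb, which was not well above background on any array. Pcna had no value on EXO-Post BSA replicate 1 and EXO-Post Palm replicate 3, so the means of these arrays, -1.39 and 1.20, leave it out. Ccnb1, which encodes the mitotic cyclin B1, had a log2 change of 2.76 (limma adjusted p = 0.0108). The part of proliferating cells in the differences of Notch1, Dll1, Hey1 and Heyl was not tested.

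Of the 8 myoblast and satellite cell markers, 6 were tested and none passed. The mean level of all 8, including the untested Pax3 and Myf5, ran from 0.13 to 0.48 with EXO-Post BSA and from -0.01 to 0.33 with EXO-Post Palm. Itga7, an integrin of myoblasts and muscle fibres, was the marker with the smallest p, its log2 change being -0.67 with groups that did not overlap (limma adjusted p = 0.295, unadjusted p = 0.00959). Myod1 had a log2 change of 0.03 (limma adjusted p = 0.986), Pax7 one of -0.21 (limma adjusted p = 0.852), and Myf5 was not well above background on any array. The mean level of the 10 muscle differentiation markers ran from 4.47 to 4.77 with EXO-Post BSA and from 4.33 to 4.60 with EXO-Post Palm. Ttn had no value on EXO-Post BSA replicate 3 and Tmem8c had none on EXO-Post BSA replicate 4, so the means of these arrays leave them out. Of these 10 markers, 3 had groups that did not overlap, all lower. Myh8, the perinatal myosin, had a log2 change of -0.65 (limma adjusted p = 0.304, unadjusted p = 0.0105), and Myh3, the embryonic myosin, one of -0.46 (limma adjusted p = 0.512). The part of these marker differences in those of Notch1, Dll1, Hey1 and Heyl was not tested. All 5 fibroblast markers were higher with EXO-Post Palm without passing the threshold, their mean running from -1.21 to -0.56 against -0.20 to -0.06, and their part in the differences was not tested. Of the 5 endothelial markers, whose cells also use Dll and Hey genes, Kdr and Pecam1 were well above background on all 7 arrays, with log2 changes of -0.07 (limma adjusted p = 0.948) and -0.03 (limma adjusted p = 0.978), while Tek, Cdh5 and Tie1 were not on any array.

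Reference promoters were searched for the letters of 2 motifs of the pathway. Windows of 300 bases from 250 before to 50 after the start, from RefSeq on GRCm38.p6, were found for Notch1, Notch2, Notch3, Jag1, Jag2, Dll1 and Hes6, which is 7 of the 10 genes with 9 windows, and not for Hes1, Hey1 and Heyl. TGGGAA on either strand, the core of the site that RBPJ binds, and GTGGGAA, a longer form that contains it, were in none of the 9 windows, against 25.6 and 6.38% of all 32851 promoters. CACNAG on either strand, the N box that HES proteins bind, was in 5 of the 9 windows, namely those of Notch1, Notch2 and Notch3 and 1 each of Dll1 and Hes6, against 42.5% of all promoters.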

How the data were processed

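Total RNA of 7 cultures, labelled with Cy3, was read on 1-colour Agilent mouse arrays. The authors deposited the scanner output of each array, which gives for each spot a background-subtracted intensity not yet normalised between arrays, and a table of their processed log2 values, used as an alternative. The submitters' notes name Agilent Feature Extraction 9.1, the file headers 10.7.3.1 and, for EXO-Post BSA replicate 3, 11.5.1.1. The methods name Agi4x44PreProcess and limma without settings.

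Here, log2 of the processed signal minus each array's 75th percentile over 43020 non-control spots was used. Spots marked as uneven or as outliers were left out and spots of 1 probe averaged. A probe entered the test if 75% or more of the arrays of either group had it well above background. The fit was made with limma 3.58.1 in R 4.3.3 (condition only, 2-sided, Benjamini-Hochberg over all tested probes, threshold 0.05, prior degrees of freedom 3.67), after the steps were tested on simulated data. Exact permutation tests of single probes were not adjusted. The output of EXO-Post BSA replicate 3 lacks gene names, joined by probe name, and mean signals, so that the normexp alternative (offset 50) used median signals on all arrays. The number of arrays limits the precision.

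All probes of the 10 genes are named, and in each role list the 2 tested genes with the smallest unadjusted p. Genes with several probes are summarised by the brightest over the 7 arrays. The members and lists were chosen with earlier results of these data known. Positions of probes come from the array annotation (mm9). Alternatives covered normalisation, background correction, probe filters, slide, replicate numbers, array weights, variance model, threshold, test and leaving out arrays. Replicate numbers did not pair the arrays: correlations of deviations from the group means for the shared numbers were 0.12, -0.15 and -0.15.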

Additional observations from a re-analysis of the deposited data

Results flagged for a closer look

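Jag1 and Hes2 were each set apart by 1 of the 4 EXO-Post BSA arrays, in both cases replicate 4. Its Jag1 level was -2.10, beside -1.13 to -0.95 on the other three, and its Hes2 level was -6.37, beside -4.07 to -3.74. Hes2 was not well above background on that array, so its value there is only a reading at background. In each gene the gap to the next array was more than the share of the range allowed at the 95% level for 4 values. This was examined for 25 probes, and chance alone marks about 1 in 20 groups.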

How the results depend on the processing

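Under no alternative did a probe of the 10 genes, or of a further pathway gene, reach an adjusted p of 0.05. Notch1, Dll1 and Heyl were lower with an unadjusted p under 0.05 in all 17 alternative fits, with log2 changes of -1.44 to -0.99, -1.06 to -0.59 and -1.35 to -0.69, and Hey1 was lower in all 17 but had such a p in 6. Their limma adjusted p ranged from 0.132 (Heyl) to 1.00 (Hey1). Of 185 combinations of a probe and an alternative, 5 turned the direction. They were Hes1 with slide as a block (0.057) and the brighter Notch2 probe with normexp (0.13), on the authors' values (0.19), without EXO-Post BSA replicate 3 (0.08) and without EXO-Post Palm replicate 3 (0.094). Leaving out single arrays gave -0.20 to 0.094 for that Notch2 probe. Alternatives chosen after seeing the data counted the probes whose groups do not overlap. Of the 11, 4 did so with quantile normalisation and 3 with normexp and on the authors' values, where Heyl overlapped, and 4 to 6 without 1 array. Over all tested probes, 11.3% did not overlap in either direction in the reported comparison, 11.1 to 11.9% with the other scalings, and 15 to 22.5% without 1 array, where fewer arrays make overlap rarer. Notch1, Dll1 and Hey1 were apart in each of these. Without 1 array this was fixed in advance for them and for Heyl, since groups already apart stay apart when an array is removed. Only the other scalings could have shown an overlap.

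The number of probes called over the array was 115 and less stable. It was 181 with slide as a random block, 173 with trended and robust variances, and 0 without the filter on dim probes. Leaving out single arrays gave 4 (without EXO-Post Palm replicate 3) to 228 (without EXO-Post Palm replicate 2), with 7 without EXO-Post Palm replicate 1 and 63, 64, 61 and 69 without EXO-Post BSA replicates 1 to 4. Unadjusted, limma called 2169 probes, 4 of them of the 10 genes, and the methods' t-test 2108, 4 of them of the 10 genes; after Benjamini-Hochberg adjustment that test called 0. With the replicate block, which shares only numbers, 0 probes were called, 0 of them of the 10 genes. Replicate number 4 exists only in EXO-Post BSA, so that array added nothing to the changes in this fit. The log2 change of Notch1 was -1.03 both here and without EXO-Post BSA replicate 4. Why 0 probes were called was not tested. Notch1 and Hes1 are limited by dim signals, and every gene but Dll1 by 1 spot per probe and array.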
